A study of Mus musculus with 14 samples.

Results

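The lysosome and autophagy genes examined here were a fixed list of 35 mouse genes: luminal proteases, glycosidases and lipid hydrolases, proteins of the lysosomal membrane and of lipid egress, subunits of the vacuolar proton pump, autophagy genes and the transcription factor Tfeb. They were found by symbol through GENCODE M21, and 34 of the 35 had a transcript in the files, out of 14248 genes in all. Ctsa (cathepsin A) was not analysed here. The data come from C57BL/6J mouse embryonic fibroblasts, connective tissue cells grown from embryos, in 14 libraries. Ribo-seq, which sequences the RNA fragments that ribosomes protect (25 to 35 nt), and RNA-seq of fragments of 40 to 60 nt were run on 4 groups. Scram was the scrambled control for the knockdowns. The series asks how translation goes on without the cap-binding complex eIF4F. METTL3, the target of one knockdown, is the catalytic subunit of the enzyme that places N6-methyladenosine in mRNA, and ABCF1, the target of the other, is an ABC-family ATPase that binds eIF2 and ribosomes. Torin1 is an inhibitor of the kinase mTOR, given at 250 nM for 2 h, with the carrier DMSO as its control treatment. No library is titled as a DMSO control, and Torin1 was set against Scram. Drug and carrier therefore cannot be told apart by the titles. The knockdowns are labelled shMETTL3 and shABCF1, and the labels do not say which cells received Torin1. Every library was washed and lysed in cycloheximide at 100 µg/ml, which holds ribosomes on mRNA. In each assay there were 2 libraries of Scram, 2 of either knockdown and 1 of Torin1. The labels do not say whether replicates are separate cultures, and the p-values therefore describe the spread between libraries alone, which may be technical.

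Lysosomes are acidic compartments in which hydrolases break down proteins, lipids and sugars, and autophagy delivers cytoplasmic cargo to them. The kinase complex mTORC1 sits on the lysosomal surface when nutrients are present. Active mTORC1 holds the factor TFEB in the cytoplasm and restrains the ULK1 kinase, which starts autophagy. When mTORC1 is inhibited, TFEB enters the nucleus and binds E-box motifs upstream of many lysosomal genes.

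Values are RPKM, reads per kilobase and per mapped library size, which makes genes of different length comparable within an assay. The kilobases match coding length in Ribo-seq and transcript length in RNA-seq. Within an assay the libraries were brought to the same median. Differences are log2 of the scaled RPKM plus 1, and translational efficiency (TE) is the Ribo-seq difference minus the RNA-seq difference. The threshold for a call was 0.05 for the adjusted p of limma, a linear model fitted across all genes. The deposited values imply 1764404 to 5155237 reads per Ribo-seq library and 1197854 to 3802696 per RNA-seq library. Replicate 1 libraries list transcripts from about 1 read, whereas replicate 2 and Torin1 libraries list them from about 5 reads and often under another transcript of the gene. For 9 members (Lamp2, Psap, Lipa, Sqstm1, Map1lc3b, Gabarap, Wipi1, Ulk1 and Tfeb) the levels and replicate differences below are therefore sums over the listed transcripts. Counts and medians over 31 members, and limma results unless said otherwise, use 1 kept transcript per gene, and counts on sums cover 33 members. Each knockdown was set against Scram of the same replicate, and Torin1 against Scram replicate 2. All 3 comparisons share the Scram libraries. Mettl3 RNA was at 29.0% and 77.8% of Scram in METTL3 knockdown replicates 1 and 2, and its ribosome footprints at 12.3% and 38.7%. Abcf1 RNA was at 29.3% and 47.8% of Scram in the ABCF1 knockdown, and its footprints at 34.2% and 50.6%. Of 10 fibroblast markers 9 reached at least 1 RPKM in every library of both assays, and Lum was not listed. Of 9 macrophage markers 6 were listed in some RNA-seq library and 3 in some Ribo-seq library, with summed RPKM up to 9.28 and 25.8, and Adgre1, Itgam and Tyrobp were listed in none. The 6 epithelial markers summed to at most 86.4 in RNA-seq and 283 in Ribo-seq.

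The promoter windows of the members held an E-box more often than promoters at large, with no test. TFEB binds E-boxes upstream of many lysosomal genes, so these shares describe the list and are no independent finding. RefSeq promoter windows (GRCm38.p6, 250 bases before to 50 after the gene start) were at hand for 29 of the 35 members; Ctsb, Npc1, Asah1, Map1lc3a, Atp6v1b2 and Atp6v1h had no entry. The palindrome CACGTG, which reads the same on both strands, was in 10 of 29 member windows (34.5%), against 2187 of 27025 genes (8.09%) in the whole table. The longer TCACGTG, searched on both strands and always containing the shorter motif, was in 9 of 29 members (31.0%) and in 1160 of 27025 genes (4.29%). Of the other lysosome and autophagy genes described further below, 79 had a window. Among these, 21 held CACGTG and 19 held TCACGTG, so the motif is not particular to the members. The 8 members with TCACGTG and with data are shown because this motif is the sequence feature they hold in common. Each stretch reads 5′ to 3′ along the gene's strand, with CACGTG in capitals, and positions count back from the RefSeq gene start.
Lamp1, chr8:13159082-13159160, plus strand, from -79 to -1: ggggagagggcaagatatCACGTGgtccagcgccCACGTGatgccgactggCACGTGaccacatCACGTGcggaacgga
Gla, chrX:134601170-134601250, minus strand, from -245 to -165: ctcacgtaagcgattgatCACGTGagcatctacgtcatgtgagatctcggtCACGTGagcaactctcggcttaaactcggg
Mcoln1, chr8:3500462-3500491, plus strand, from -57 to -28: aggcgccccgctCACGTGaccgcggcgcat
Ctsd, chr7:142387908-142387937, minus strand, from -110 to -81: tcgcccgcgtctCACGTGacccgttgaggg
Glb1, chr9:114401012-114401059, plus strand, from -66 to -19: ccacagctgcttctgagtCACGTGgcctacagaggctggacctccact
Naglu, chr11:101070009-101070038, plus strand, from -85 to -56: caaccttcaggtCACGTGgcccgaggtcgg
Atp6v1a, chr16:44139361-44139408, minus strand, from -149 to -102: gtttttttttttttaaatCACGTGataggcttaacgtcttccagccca
Atp6v0d1, chr8:105566062-105566085, minus strand, from -21 to 3: gccaggccctactgcggtCACGTG
Lamp1 holds 4 copies within the 61 bases before its start, and Gla, Mcoln1 and Ctsd hold 2 each in their windows. The Mcoln1 and Ctsd stretches lie before the RefSeq gene start but within the span of the transcript used here. That of Naglu overlaps the first bases of its transcript. A match describes the letters only and says nothing of binding.

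In Scram cells most members were abundant and densely covered by ribosomes. Over the 33 members with data in both assays (Ctsk was at or near 0), the median Scram level was 130 scaled RPKM in Ribo-seq against 22.4 over all 9534 genes tested, and 23.9 in RNA-seq against 9.53 over all 9021. The median log2 TE, the footprint level minus the RNA level on the log2 scale, was 2.40 for the members (0.12 to 4.40) and 1.22 over all genes. Of the 33, 32 lay above the all-gene median in the mean of the replicates, and 28 and 31 lay above the all-gene medians of replicate 1 (1.23) and replicate 2 (1.28). These levels are a description, with no test, and TE levels rest on the annotated coding and transcript lengths.

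Among the luminal proteases, Ctsb (cathepsin B, chr14:63122462-63145923, 10 exons) had the highest mean footprint level of the members, at 1805 scaled RPKM in Scram replicate 1 and 1296 in replicate 2. Its RNA was at 102 and 65.8. Ctsl, another cysteine protease, had footprints at 901 and 1199 and RNA at 107 and 103, so the replicates of Ctsb and Ctsl do not overlap in either assay, with Ctsb higher in footprints and Ctsl higher in RNA. Ctsk, the cathepsin of bone-resorbing osteoclasts, was listed only in RNA-seq of Scram and METTL3 knockdown replicate 1, at 0.30 and 0.63. Among the hydrolases, Hexa (a subunit of the ganglioside-cleaving β-hexosaminidase) had footprints at 82.0 and 56.8, and Asah1 (acid ceramidase) at 75.4 and 119. These ranges overlap.

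Lamp1, a heavily glycosylated protein of the lysosomal membrane (chr8:13159161-13175338, 9 exons), had the highest mean RNA level of the members, at 204 and 151 scaled RPKM, with footprints at 1473 and 699. Npc2, a soluble protein that hands cholesterol to the membrane protein Npc1 (chr12:84754562-84773152, 4 exons), had RNA at only 37.7 and 30.4 but footprints at 922 and 590. Its mean log2 TE of 4.40 was the highest of the list. Npc1 itself had footprints at 18.1 and 18.9 and a log2 TE of 1.34. Footprints are per coding length and RNA is per transcript length, so TE levels rest on the annotated lengths. The Npc2 transcript has 3299 bases, of which 450 are coding, and that of Npc1 has 5224, of which 3834 are coding. The part of these lengths in the order of TE was not tested. The proton pump subunits were closer together, from Atp6v0d1 with footprints at 208 and 177 to Atp6v1a at 76.8 and 96.1.

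Autophagy genes spanned nearly the whole range. Gabarap, a ubiquitin-like protein that is joined to autophagosome membranes (chr11:69991143-69994951), had footprints at 1885 and 1090, above Ctsb in replicate 1 and below it in replicate 2, while Ulk1, the kinase that starts autophagy, had 8.56 and 8.11 and the lowest log2 TE of the list, 0.12. Sqstm1 (p62, a receptor that carries ubiquitinated cargo) was at 225 in Scram replicate 1 and 1207 in replicate 2, and Map1lc3b, a relative of Gabarap, at 62.8 and 357. In both genes the replicates of Scram differed more than the knockdowns did from Scram, so only differences within a replicate number are read below. Tfeb was low, with footprints at 26.6 and 33.9 and RNA at 2.23 and 12.7.

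**Figure D1:**
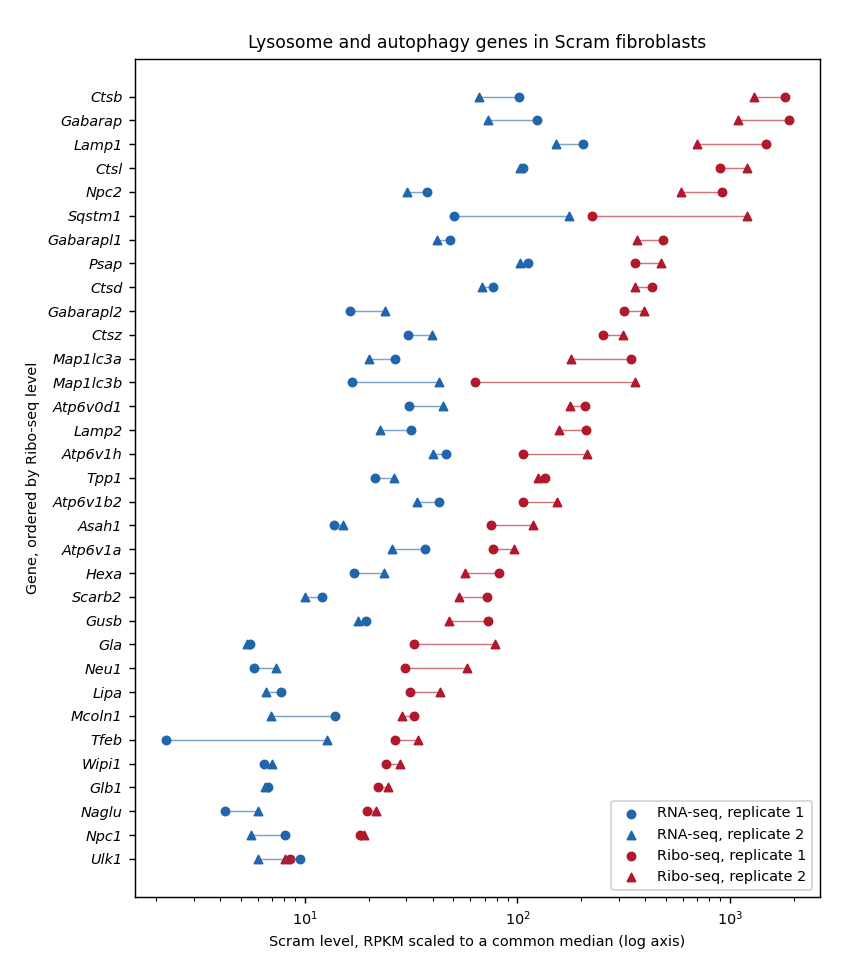
Level of each member in Scram, in scaled RPKM on a log axis, with RNA-seq in blue and Ribo-seq in red, circles for replicate 1 and triangles for replicate 2, and a line joining the replicates. Footprint levels exceed RNA levels for nearly all members; Sqstm1 and Map1lc3b have the widest gaps between replicates in Ribo-seq. Ctsk, at or near 0, is left out.

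METTL3 knockdown left no member past the test, but footprints of Ctsb were lower in both replicates by nearly the same amount. Ctsb footprints were at 1805 and 1296 scaled RPKM in Scram and at 979 and 713 in METTL3 knockdown. Both knockdown libraries lay below both Scram libraries. The log2 differences were -0.88 and -0.86, and the limma estimate was -0.87 (SE 0.36, adjusted p = 0.9999, and 0.1883 with the replicate number as a block). Its RNA was at 102 and 65.8 in Scram and 65.1 and 45.5 in the knockdown, which are close but do not overlap, with differences of -0.63 and -0.52. The TE differences of Ctsb were -0.25 and -0.34, smaller than those of its footprints.

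Across the members, footprints in METTL3 knockdown were more often lower than higher. Of 31 members tested, 15 were lower in both replicates and 2 higher, where 25.2% of all genes were lower in both and 27.8% higher. With transcripts summed, 14 of 33 were lower and 3 higher, against 25.8% and 31% of all genes. The median difference of the members was -0.28 (-0.02 in replicate 1 and -0.52 in replicate 2), against 0.02 over all genes. In both replicates 2 members were lower by at least 0.5, Ctsb and Atp6v1b2, where 4.95% of all genes were. Without Scram Ribo-seq replicate 2 the median was -0.02, so it depends on replicate 2. That fit has no block and sets both knockdown libraries against Scram replicate 1. It therefore cannot tell whether the Scram or the knockdown library of replicate 2 sets the difference. In limma 0 of 31 members and 0 of 9534 genes (0%) passed, and with the block 0 members and 1 gene (0.0105%). Without the block, at an unadjusted p under 0.05 there were 0 members and 243 genes (2.55%), and on sums 2 members, Ctsb and Tfeb, where 4.76% of genes were. With the block the unadjusted limma p was 0.0036 for Ctsb, 0.024 for Atp6v1b2, 0.036 for Lamp1, 0.037 for Ctsd and 0.044 for Gla. The share of all genes under 0.05 with the block is not given here.

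The members with the lowest p after Ctsb in footprints were Atp6v1b2, a subunit of the pump's catalytic head, and Gla, the α-galactosidase that cleaves glycolipids. Atp6v1b2 footprints were at 106 and 153 in Scram and 60.2 and 106 in METTL3 knockdown, with differences of -0.81 and -0.52. The higher knockdown library matched the lower Scram library within rounding. Gla footprints were at 32.6 and 78.2 in Scram and 27.3 and 31.5 in the knockdown, with differences of -0.25 and -1.29. The size of the Gla difference depends on replicate 2, since without Scram replicate 2 its estimate was 0.02 in the fit without the block. In the same set, Gla footprints were at 38.5 in ABCF1 knockdown and 86.7 with Torin1. Tfeb was higher: its footprints, summed over transcripts, were at 26.6 and 33.9 in Scram and 46.9 and 55.3 in METTL3 knockdown. Both knockdown libraries lay above both Scram libraries, by 0.80 and 0.69. In limma on the sums the estimate was 0.74 (SE 0.27, adjusted p = 0.9998, unadjusted p = 0.0336). Tfeb RNA, also summed, was at 2.23 and 12.7 in Scram and 6.30 and 10.4 in METTL3 knockdown, so its replicates went opposite ways. In ABCF1 knockdown, Tfeb footprints lay above both Scram libraries as well, at 38.1 and 39.2.

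RNA of the members in METTL3 knockdown was close to Scram. Of 31 members 11 were lower in both replicates and 9 higher, where 26.1% and 25.4% of all genes were, and the median was -0.05 against -0.01 over all genes. On sums 10 of 33 were lower and 10 higher, against 27.7% and 26% of genes. In limma 0 of 31 members and 0 of 9021 genes (0%) passed, with or without the block, and at an unadjusted p under 0.05 there were 0 members and 63 genes (0.698%). Npc2 had the lowest p: its RNA was at 37.7 and 30.4 in Scram and 27.2 and 22.6 in the knockdown, a difference of -0.46 and -0.41. Both knockdown libraries lay below both Scram libraries. Ctsz, a carboxypeptidase of the lysosome, was higher by 0.31 and 0.27, with values of 30.4 and 39.8 against 38.0 and 48.0 that overlap. Of TE, 15 of 31 members were lower in both replicates and 2 higher, where 23.6% and 29.2% of all genes were, and on sums 16 and 2 of 33, against 23.1% and 31.5%. The median TE difference was -0.15 against 0.04, and limma called 0 of 31 members and 0 of 9428 genes (0%), with 0 members and 46 genes (0.488%) at an unadjusted p under 0.05. Gabarapl2, another relative of Gabarap, had the lowest p, with TE differences of -0.28 and -0.77, and Atp6v1b2 had -0.61 in both.

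**Figure D2:**
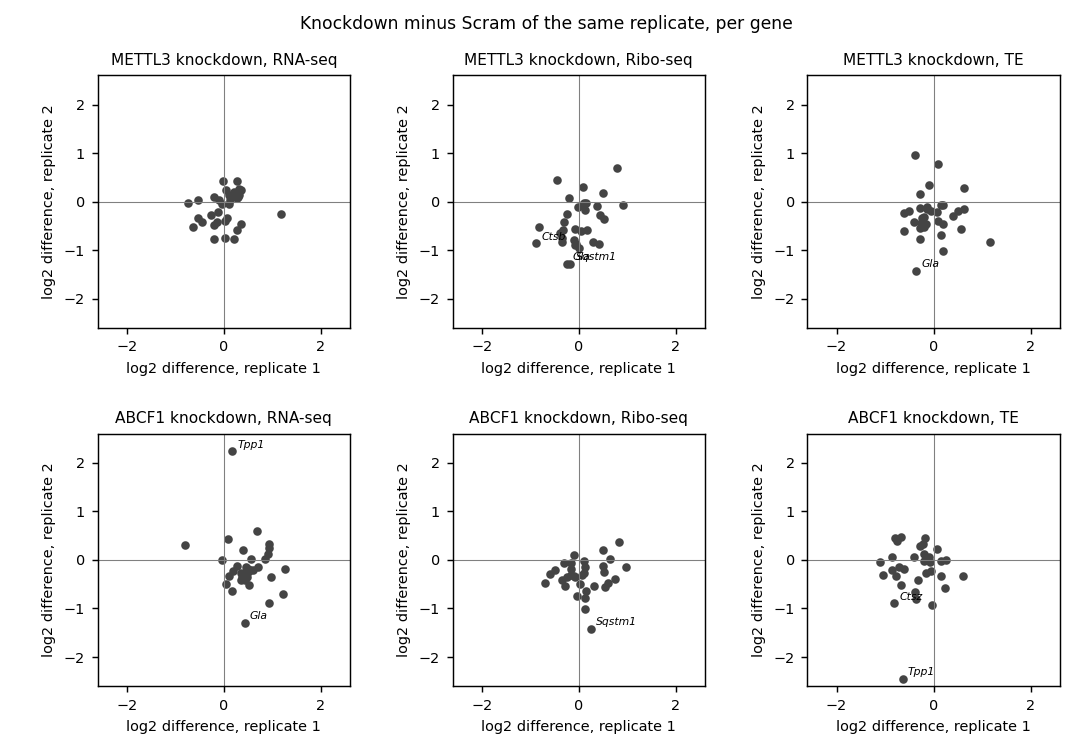
Log2 difference from Scram in replicate 1 (horizontal) against replicate 2 (vertical), 1 point per member, for METTL3 knockdown (top) and ABCF1 knockdown (bottom) for RNA, footprints and TE, with a few points named. In METTL3 footprints Ctsb sits at -0.88 and -0.86, and in ABCF1 RNA-seq most points lie to the right of 0 and below it, with Tpp1 far above at 2.24.

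ABCF1 knockdown also left no member past the test, and its RNA replicates disagreed. The median RNA difference of the members was 0.40 in replicate 1 and -0.21 in replicate 2, against 0.00 and -0.05 over all genes. Of 31 members 1 was lower in both replicates and 6 were higher, where 29% and 21.8% of all genes were. On sums 0 of 33 were lower and 9 higher, against 30.4% and 22.2% of genes, and the limma median was 0.16 in place of 0.05. In limma 0 of 31 members and 0 of 9021 genes (0%) passed, with or without the block. Without the block, at an unadjusted p under 0.05 there were 0 members and 79 genes (0.876%). With it the unadjusted limma p was 0.012 for Ctsz.

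Ctsz was the member with the lowest p in RNA. Its RNA was at 30.4 and 39.8 scaled RPKM in Scram and at 49.3 and 60.2 in ABCF1 knockdown. Both knockdown libraries lay above both Scram libraries, by 0.68 and 0.59 (limma 0.63, SE 0.28, adjusted p = 1, and 0.7031 with the block). Its footprints overlapped, at 253 and 315 in Scram and 226 and 254 in the knockdown. The TE difference was -0.82 and -0.89 (limma -0.85, SE 0.42, adjusted p = 1, and 0.9984 with the block).

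Tpp1, a protease of the lysosome that trims tripeptides (chr7:105744811-105752235, 13 exons), stood out through 1 library. Its RNA was at 21.4 and 26.4 in Scram, 18.4 and 15.1 in METTL3 knockdown, 25.8 in Torin1, and 24.3 and 128 in ABCF1 knockdown. The value of 128 was above every other RNA-seq library. Its footprints ranged only from 93.5 to 135 over all 7 Ribo-seq libraries, with 108 in that replicate. The RNA estimate was 1.21 (SE 0.77) in limma, and -0.09 without ABCF1 knockdown RNA-seq replicate 2.

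Footprints in ABCF1 knockdown were lower in both replicates for 11 of 31 members and higher for 2, where 23% and 25.3% of all genes were. With transcripts summed it was 13 and 3 of 33, against 24.6% and 27.8%. The median was -0.19 (0.03 and -0.32 by replicate) against 0.00 over all genes, and 0.05 without Scram Ribo-seq replicate 2. In limma 0 of 31 members and 0 of 9534 genes (0%) passed, with or without the block. Without the block, at an unadjusted p under 0.05 there were 0 members and 106 genes (1.11%). With it the unadjusted limma p was 0.022 for Ctsb and 0.046 for Gabarap. Ctsb footprints were at 1108 and 930 in ABCF1 knockdown, both below the Scram values of 1805 and 1296, by 0.70 and 0.48 on the log2 scale. Cathepsin B footprints were thus lower than in Scram in all 4 knockdown libraries, which share those Scram libraries. Cathepsin D, the aspartic protease Ctsd, had footprints at 429 and 358 in Scram and at 337 and 267 in ABCF1 knockdown, and both of the latter lay below the former.

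TE in ABCF1 knockdown was lower in both replicates for 15 of 31 members and higher for 3, where 20.3% and 30.9% of all genes were, with a median of -0.14 against 0.07. On sums it was 17 and 1 of 33, against 21.1% and 32.2%. The median turned to 0.10 without ABCF1 knockdown RNA-seq replicate 1 and was -0.54 without replicate 2. In limma 0 of 31 members and 0 of 9428 genes (0%) passed, with or without the block. Without the block, at an unadjusted p under 0.05 there were 0 members and 37 genes (0.392%). With it the unadjusted limma p was 0.008 for Ctsz. Gabarapl2 had RNA at 16.3 and 23.9 in Scram and 30.2 and 24.1 in the knockdown, and TE differences of -0.77 and -0.32.

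After 2 h of Torin1, more members were higher than lower in RNA, and more were lower than higher in footprints and TE, when set against Scram replicate 2. RNA was higher for 22 of 31 members and lower for 9, where 47.1% and 52.7% of all genes were, and higher by at least 0.5 for 5 members, where 8.08% of genes were. The median RNA difference was 0.22 against -0.02 over all genes. Footprints were lower for 20 members and higher for 11, where 50% and 49.3% of genes were, with a median of -0.24 against 0.00. TE was lower for 25 members and higher for 6, where 47.6% and 52.1% of genes were, and lower by at least 0.5 for 12, where 18.5% were, with a median of -0.34 against 0.03. On sums, 24 of 33 were higher and 9 lower by RNA (46.7% and 53.1% of genes), 22 lower and 11 higher by footprints (50.5% and 48.7%), and 27 lower and 6 higher by TE (48.1% and 51.7%). The footprint direction depended on the reference and the scaling. Over both Scram libraries the limma median was -0.003, 0.14 on sums, 0.38 with quantile normalization and 0.28 without Scram replicate 2. Against Scram replicate 2 with quantile normalization it was -0.001 for footprints and -0.22 for TE, and over both Scram libraries 0.075 for TE. Torin1 has 1 library per assay, so these differences have no replicate check. Without scaling the median of all genes moved to 0.39 in TE and that of the members to 0.03, still below it, and the members' median RNA difference was 0.05 against -0.18.

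The limma fit, which takes the spread of the lone Torin1 libraries from the other groups, called no gene in Torin1 without the block. In each measure 0 of 31 members passed, and so did 0 (0%) of the 9021 genes tested by RNA, of the 9534 by footprints and of the 9428 by TE. At an unadjusted p under 0.05 there were 203 genes by RNA (2.25%), 304 by footprints (3.19%) and 253 by TE (2.68%), and 1 member, Gabarap by footprints. On sums Gabarap was not among them (unadjusted p = 0.146), while Mcoln1 and Npc2 were, both by footprints (unadjusted p = 0.031 and 0.0481, with 6.3% of genes) and by TE (0.0214 and 0.0312, with 4.65% of genes). With the block 10 genes passed by RNA (0.111%), 126 by footprints (1.32%) and 52 by TE (0.552%), and 0 members. The lowest blocked adjusted p of a member was 0.1432 for Gabarap footprints on the kept transcript, and 0.189 for Npc2 footprints on sums, where Gabarap had 0.3183.

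The lowest Torin1 footprints relative to Scram replicate 2 were those of Npc2, Mcoln1, Gabarap and Lamp1, while Psap, Npc1 and Scarb2 of the same role as Npc2 were at -0.05, -0.11 and 0.09. Npc2 footprints were at 590 scaled RPKM in Scram replicate 2 and at 233 with Torin1 (1107 and 232 reads), and no other Ribo-seq library was below 388. The difference was -1.34, with a 95% interval of -1.55 to -1.14 that covers counting error only. Its RNA was at 30.4 and 35.6. Mcoln1, a cation channel of the lysosomal membrane (chr8:3500457-3515232, 14 exons), had footprints at 28.7 in Scram replicate 2 and 11.9 with Torin1, on 209 and 46 reads, and the counting interval of the log2 ratio ran from -1.76 to -0.80. Its RNA was at 6.94 and 12.2, on 49 and 24 reads. That Scram replicate 2 value was the lowest of the RNA-seq libraries. Mcoln1 RNA was at 13.9 in Scram replicate 1 and from 9.69 to 14.7 in the knockdowns, a range that holds the Torin1 value. Lamp1 footprints were at 699 and 386, a difference of -0.86 (counting interval -0.96 to -0.76), while its RNA was at 151 and 154. The Lamp1 difference was not particular to Torin1. In METTL3 knockdown replicate 2 its footprints were at 415, a difference of -0.75 from the same Scram library (counting interval -0.845 to -0.658). In limma the TE estimate was -1.55 for Mcoln1 (SE 0.80, adjusted p = 0.9998, and 0.2487 with the block) and -1.71 for Npc2 (SE 0.94, adjusted p = 0.9998, and 0.2695 with the block).

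Gabarap and its relatives differed in direction under Torin1. Gabarap footprints were at 1090 in Scram replicate 2 and 526 with Torin1, below all 6 other Ribo-seq libraries, a difference of -1.05. In limma on the kept transcript the estimate was -1.21 (SE 0.35, adjusted p = 0.8908), on the sums it was -1.45 (SE 0.86, adjusted p = 0.7507), and under quantile normalization the difference from Scram replicate 2 was -0.49. Gabarapl1 footprints were at 364 and 543, a difference of 0.58 (counting interval 0.39 to 0.76), and its RNA at 41.9 and 56.9. Gabarapl2 footprints were at 393 and 333, and Map1lc3a at 179 and 162. Map1lc3b footprints were at 357 and 284 (counting interval -0.549 to -0.127). The counting interval lay above 0 for Gabarapl1 and below 0 for Gabarap, Gabarapl2 and Map1lc3b, and it held 0 for Map1lc3a. The difference between these genes was not tested.

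Among the hydrolases under Torin1, Hexa RNA was at 23.7 in Scram replicate 2 and 36.5 with Torin1, and Neu1 (sialidase) RNA at 7.32 and 12.3. Their footprints were lower with Torin1, at 56.8 and 34.7 for Hexa and at 57.7 and 41.5 for Neu1. TE was lower for 8 of 8 hydrolases, 6 of 6 tested membrane and egress proteins, 4 of 5 proteases, 3 of 4 pump subunits and 4 of 7 autophagy genes, where 47.6% of all genes were. Differences between these roles were not tested. The proteases differed in direction: Ctsl footprints were at 1199 and 1397, and Ctsb at 1296 and 1050. RNA depth limits this comparison, since members had as few as 14 reads in 1 of the RNA-seq libraries compared.

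Fibroblast, macrophage and epithelial marker sums of the Torin1 Ribo-seq library lay outside the range of the other Ribo-seq libraries. That of the 10 fibroblast markers was 4683 with Torin1 and 6088 to 8572 elsewhere. The summed footprint RPKM of 9 macrophage markers was 25.8 with Torin1 and 3.20 to 16.99 elsewhere, with 6 of the 9 at 0 in every Ribo-seq library, and in RNA-seq the sum was 0 with Torin1 and also in libraries of both knockdowns. That of 6 epithelial markers was 98.3 with Torin1 and 131 to 283 elsewhere. Their part in the Torin1 values was not tested. In RNA-seq the Torin1 sums of fibroblast and epithelial markers were 3074 and 66.9. They lay within the range of the RNA-seq libraries, 2282 to 5375 and 36.0 to 86.4. In these bulk samples a change in cell types and a change in RNA or footprints per cell cannot be told apart.

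**Figure D3:**
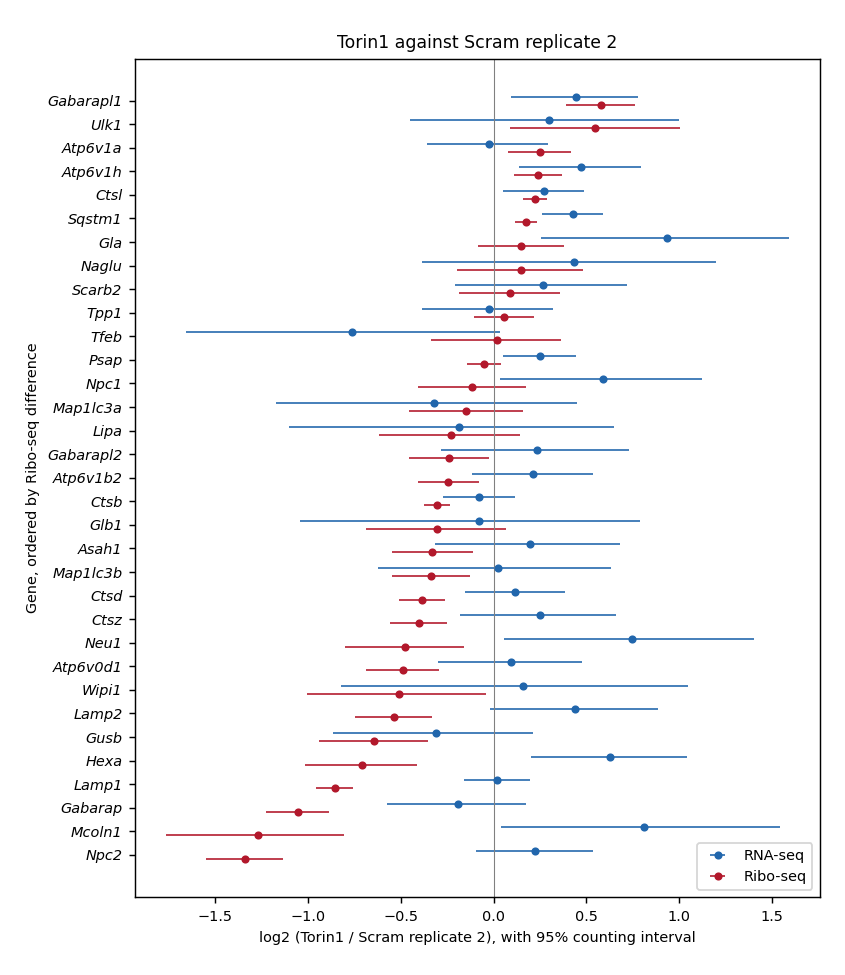
Log2 ratio of Torin1 to Scram replicate 2 for 33 members, with RNA-seq in blue, Ribo-seq in red and bars for the 95% interval of counting error (not replicate error). Footprints of Npc2, Mcoln1, Gabarap and Lamp1 lie farthest to the left, and among footprints Gabarapl1 lies farthest to the right at 0.58.

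Sqstm1 footprints were higher in each of the 4 libraries of replicate 2 and Torin1 than in each of the 3 libraries of replicate 1. Its summed RNA (chr11:50200152-50210827 for the kept transcript) was at 50.4 scaled RPKM in Scram, 51.0 in METTL3 knockdown and 96.8 in ABCF1 knockdown in replicate 1. In replicate 2 and Torin1 it was at 175 in Scram, 103 in METTL3 knockdown, 93.8 in ABCF1 knockdown and 236 with Torin1. Footprints were at 225, 199 and 266 in replicate 1, and at 1207, 497, 451 and 1366 in the second set in the same order. In the second set both knockdowns were thus lower than Scram, by 1.28 and 1.42 in footprints, whereas in replicate 1 the differences were -0.18 and 0.24. The limma estimates on the sums were -0.73 (SE 0.89) for METTL3 and -0.59 (SE 0.89) for ABCF1, with adjusted p of 0.9998 and 1. Neither comparison passed the test.

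**Figure D4:**
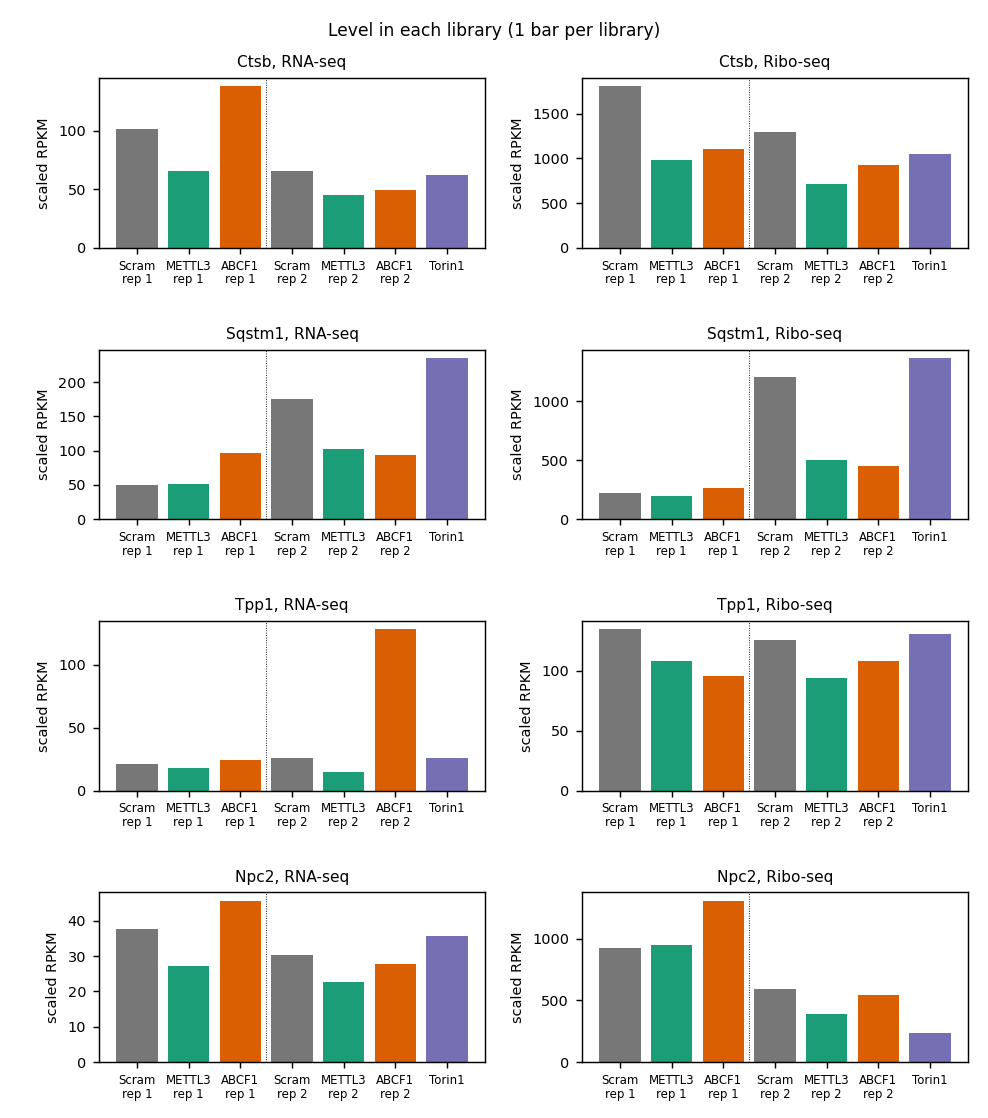
Scaled RPKM of Ctsb, Sqstm1, Tpp1 and Npc2 in each of the 14 libraries, RNA-seq on the left and Ribo-seq on the right, 1 bar per library, with a dotted line between replicate 1 and the set of replicate 2 and Torin1. Ctsb footprints are lower in each knockdown bar than in the Scram bar of the same replicate, Tpp1 RNA is high in 1 ABCF1 library (128), and Npc2 footprints are lowest with Torin1 (233).

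Members with and without TCACGTG in their window were set side by side, with no test. In Torin1 RNA-seq the median difference was 0.11 for the 8 members with the motif (-0.07 to 0.82) and 0.24 for the 19 without it (-0.69 to 0.67). In Torin1 TE the medians were -0.54 and -0.34. In METTL3 knockdown footprints they were -0.17 and 0.10 in replicate 1 and -0.70 and -0.25 in replicate 2. The ranges of the groups overlap in the Torin1 RNA values. They also overlap in Torin1 TE, at -1.94 to 0.27 with the motif and -1.56 to 0.70 without it. In METTL3 knockdown footprints of replicate 2 they overlap too, at -1.29 to 0.45 and -1.28 to 0.69.

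A further 100 genes of the same pathways were read alongside: other pump subunits, hydrolases and cofactors, membrane proteins, autophagy machinery, the Ragulator and Rag proteins that anchor mTORC1 with the relatives of TFEB, and sorting proteins. Between 88 and 90 of them were tested per measure, and limma called 0 of them in every comparison, with or without the block. In METTL3 knockdown footprints 25 of 90 were lower in both replicates and 17 higher, where 25.2% and 27.8% of all genes were. The median was -0.03 against -0.28 for the members. In ABCF1 knockdown footprints it was 25 and 12, where 23% and 25.3% of all genes were, with a median of -0.09. In Torin1 TE 53 of 89 were lower than Scram replicate 2, where 47.6% of all genes were. The median was -0.17 against -0.34 for the members.

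The lowest p among these in METTL3 knockdown belonged to Rraga, a Rag GTPase that recruits mTORC1 to the lysosome, with footprint differences of -1.49 and -0.95 (limma -1.22, SE 0.30, adjusted p = 0.9999, and 0.1292 with the block). Optn, an autophagy receptor, had -1.07 and -1.16 (limma -1.11, SE 0.27, adjusted p = 0.9999, and 0.144 with the block). RNA of both genes was lower too. Rraga RNA was at 38.5 and 31.3 in Scram and 17.4 and 15.2 in METTL3 knockdown. Optn RNA was at 9.08 and 9.84 in Scram and 4.74 and 6.96 in the knockdown. The pump's accessory subunit Atp6ap2 had -0.78 and -1.40, the tetraspanin Cd63 -0.48 and -0.44, and Gnptg, which helps tag hydrolases with mannose 6-phosphate, -0.38 and -0.78. In ABCF1 knockdown, Ctso, a cysteine cathepsin, had footprint differences of 1.14 in both replicates (limma 1.14, SE 0.34, adjusted p = 1, and 0.4295 with the block), and Cd63 had -1.003 and -0.74. Their RNA moved the same way. Ctso RNA was at 1.42 and 0.93 in Scram and 3.54 and 2.04 in ABCF1 knockdown. Cd63 RNA was at 143 and 174 in Scram and 98.5 and 136 in the knockdown. Rraga had -0.51 and -0.44, Atg101, a partner of ULK1, -0.26 and -0.61, the sorting receptor Sort1 0.35 and 0.54, and the pump subunit Atp6v0b -0.42 and -0.95 in RNA. With Torin1, footprints of the autophagy receptor Nbr1 were higher than in Scram replicate 2 by 0.77 and those of Flcn (folliculin) by 0.66. Those of Atp6ap1 and Gnptg differed by -0.47 and -0.76, and the TE of the ganglioside activator Gm2a and of the transporter Abcd4 by -1.12 and 1.33. Abcd4 RNA was at only 1.04 in Scram replicate 2 and was not listed with Torin1, where it counts as 0. The TE value of Abcd4 rests mostly on this, since its footprints were at 4.87 and 6.20. None of these passed the test.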

How the data were processed

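Each deposited file gives 1 RPKM value per Ensembl transcript. Per the submitters' processing notes, which name cutadapt, Bowtie and GRCm38, the authors trimmed and mapped the reads; the annotation and read minimum they used were not given in the sources used here. Multiplying the deposited RPKM by GENCODE M21 length gave whole reads (within 0.02) for 98.7% to 98.8% of Ribo-seq values with coding length, and for RNA-seq with transcript length for 80.4% to 85.4%, which gives the depth and the counting intervals (exact, 95%). Of 22453 transcripts 22356 matched GENCODE M21.

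Per gene the transcript with the highest mean RPKM was kept. A gene was tested with a mean RPKM of at least 1 and a value in 0.5 or more of the fit's libraries. Libraries were scaled to a common median within each assay, a pseudocount of 1 was added, and limma 3.58.1 (R 4.3.3, eBayes with trend) was fitted over all groups, with Benjamini-Hochberg adjustment over all genes; TE was the assay interaction. A fold change on this scale understates that of low genes. Tables and figures used Python 3.11.15 and scipy 1.17.1, and the fit was tested on simulated data.

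The kept transcript made up under 0.5 of the gene's sum in some library for 9 members, so their values are sums, which have their own scale factors; this criterion was chosen after seeing the data. The fit had no replicate block. Same-numbered libraries deviated together (correlations of 0.82 to 0.94 over genes for 6 replicate pairs), so the block is given where it matters. Counts at an unadjusted p are from the fit without the block, and the block lowered the unadjusted p of some members. Torin1 took the level of replicate 2.

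The members and lists were chosen with earlier results of these data known. Named members are the 2 highest per role in Scram, those called, and the 3 with the lowest p per comparison and measure that moved alike in both replicates; of other pathway genes, those called or else 1 per list and comparison, of which 1 is not reported here. Ctsd, Ctsk, Gabarapl1, Map1lc3a, Map1lc3b, Ulk1, Npc1, Psap, Scarb2 and Atp6v1a fall outside this rule and were chosen after their values were seen. Other pseudocounts, filters, scalings, transcript sums, the block and leaving out each library were tried.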

Additional observations from a re-analysis of the deposited data

How the results depend on the processing

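The number of genes called without the block was 0 in all 9 comparisons of group and measure, and 0 when any 1 library was left out. With the replicate block it was 1 in METTL3 Ribo-seq and 10, 126 and 52 in Torin1 RNA-seq, Ribo-seq and TE, and with the block on summed transcripts (added after seeing the data) 1, 23, 157 and 77. Torin1 TE also gave 22 calls with a pseudocount of 0.1 and 54 with no filter on low values. No member was called under any of these settings, and the block changed no other call.

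The members' median difference moved beyond the replicate spread as follows. Without scaling it was -0.10 in METTL3 RNA-seq, -0.10, 0.38 and 0.63 in the limma estimates of Torin1 RNA-seq, Ribo-seq and TE, and 0.03 in Torin1 TE against Scram replicate 2. With quantile normalization it was 0.38 in Torin1 Ribo-seq and 0.075 in Torin1 TE. The Torin1 TE median was -0.41 with the block and -0.43 with block and sums.

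Leaving out 1 library at a time, the METTL3 medians ranged from -0.17 to 0.11 in RNA-seq, -0.45 to -0.02 in Ribo-seq and -0.35 to -0.10 in TE. The ABCF1 medians ranged from -0.27 to 0.30 in RNA-seq, -0.30 to 0.05 in Ribo-seq and -0.54 to 0.10 in TE. The Torin1 limma medians ranged from 0.23 to 0.52, -0.25 to 0.28 and -0.65 to -0.13. METTL3 RNA-seq turned positive without Scram replicate 2 (0.11), ABCF1 RNA-seq negative without ABCF1 replicate 1 (-0.27), and Torin1 Ribo-seq positive without Scram replicate 2 (0.28). Of single genes, Ctsz in METTL3 RNA-seq ranged from -0.007 (without METTL3 replicate 2) to 0.606 (without Scram replicate 2), Gla in METTL3 Ribo-seq from -1.386 (without Scram replicate 1) to 0.02 (without Scram replicate 2), and Tpp1 in ABCF1 RNA-seq from -0.093 (without ABCF1 replicate 2) to 2.381 (without ABCF1 replicate 1). The cause of these shifts was not tested. Depth limits the RNA values of low members.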
